A study of Mus musculus with 4 samples.

Results

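Transcripts of 7 genes of MHC class II antigen presentation are described here in mouse leukaemia cells: Cd74, H2-Aa, H2-Ab1, H2-Eb1, H2-DMa, H2-DMb1 and Ciita. They were chosen by name, and all 7 were found among the 27998 genes of a single-cell count table. The cells were MLL-AF9 leukaemia cells, made by retroviral transduction of c-Kit+ marrow from C57BL6 mice that carried a floxed Hif-1alpha gene and CreERT2, a Cre recombinase switched on by tamoxifen. MLL-AF9 is a fusion protein that drives acute myeloid leukaemia. The 4 samples, 1 each and without replicates, were Hif-1a KO + chemotherapy, Hif-1a KO + PBS, Hif-1a wt + chemotherapy and Hif-1a wt + PBS, so the floxed allele, CreERT2 and the oncogene were common to all.

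Mice were 11 weeks old and received primary leukaemias by transplantation. After 10 days they had 1 mg tamoxifen or vehicle for 5 days, then PBS or chemotherapy, which was cytarabine at 100 mg/kg for 5 days and doxorubicin at 3 mg/kg for 3 days. GFP+ cells, which carry the retrovirus, were sorted from crushed bones 3 days after treatment. The table kept 5664 cell barcodes apart by a suffix from 1 to 4, and the sources used here do not tie a suffix to a sample. Genotype and treatment were therefore not compared, and each suffix is given as a sample with no assigned group.

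MHC class II molecules are pairs of an alpha and a beta chain that carry peptides from endosomes to the surface for CD4+ T cells. CD74, the invariant chain, blocks the groove of new pairs and guides them to the endosome, and H2-DM then exchanges its last fragment for other peptides. CIITA is the coactivator that switches the locus on, in dendritic cells, B cells and macrophages, and in many other cells after interferon gamma. C57BL6 mice make the I-A pair from H2-Aa and H2-Ab1, while the I-E pair is not made because its alpha chain gene is defective in this haplotype.

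The promoters of class II genes are known for an X box, bound by RFX and CREB proteins, followed by a Y box, bound by NF-Y. The stretches of 3 members are shown because the results separate them: H2-Aa and H2-Eb1 transcripts were few, and H2-DMb1 transcripts were found in every cluster of cells. Each stretch runs from 110 to 31 bases before the start site on the strand of its gene, taken from RefSeq on GRCm38.p6. Capitals mark matches to an X core (ACNGATG), a Y core (GATTGG) or an X2 palindrome (TGACGTCA), searched on both strands.
H2-Aa (chr17:34287854-34287933, minus strand): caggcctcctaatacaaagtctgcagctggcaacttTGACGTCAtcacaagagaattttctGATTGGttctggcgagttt
H2-Eb1 (chr17:34305757-34305836, plus strand): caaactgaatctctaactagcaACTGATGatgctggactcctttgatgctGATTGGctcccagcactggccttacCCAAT
H2-DMb1 (chr17:34153081-34153160, plus strand): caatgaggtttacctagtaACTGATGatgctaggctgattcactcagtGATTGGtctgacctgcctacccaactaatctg

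In H2-Eb1 the X core began 88 bases and the Y core 60 bases before the start site, and a Y core on the other strand began at 35 bases and ran past the end of the stretch. In H2-DMb1 the X core began at 91 and the Y core at 62 bases before the start site. H2-Aa had the palindrome at 74 and the Y core at 49 bases before the start site, and its X core match lay on the other strand at 232 bases. No match overlapped another. An X core with a Y core 15 to 35 bases after it on the same strand was found in 20 of 32851 promoter windows (0.0609%), which included H2-Eb1, H2-DMb1 and, outside the 7 genes, H2-DMb2 and H2-Eb2. Alone, the X core was found in 9.85%, the Y core in 16.1% and the palindrome in 1.79% of windows. H2-DMa had 2 windows, of which one held none of the 3 motifs and the other a Y core at 199 bases before the start site. These matches describe letters and not binding.

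After removal of 208 barcodes with more than 10% mitochondrial UMIs (unique molecular identifiers, 1 per captured transcript), 5456 cells remained. The suffixes held 1174 to 1625 cells and 7644436 to 9932649 UMIs, with median depths from 5315 to 6435 UMIs per cell. Only 17 barcode sequences occurred under 2 suffixes. The cells were myeloid, as the summed neutrophil, granulocyte precursor and monocyte markers reached 17020, 16590 and 12211 CPM, against at most 2.04 CPM for T and NK cell markers. CPM is UMIs of a gene per 1000000 UMIs, counted at transcript 3' ends and not divided by length. All intervals are exact 95% intervals that cover counting error only.

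The peptide exchange factor H2-DM supplied most of the class II transcripts. H2-DMa, its alpha chain, was counted at 211 CPM in suffix 1, 193 CPM in suffix 2, 284 CPM in suffix 3 and 296 CPM in suffix 4. H2-DMb1, its beta chain, had 69.7, 69.5, 108 and 108 CPM in suffixes 1 to 4. Of 13250 class II UMIs, 8578 were from H2-DMa and 3106 from H2-DMb1. After each cell was thinned to 2000 UMIs, H2-DMa was detected in 34.5%, 33.3%, 43.4% and 45.3% of the cells of suffixes 1 to 4, and in 68.2%, 66.1%, 74.2% and 73.9% without thinning. H2-DMb1 was detected in 13.1%, 12.02%, 20.5% and 20.9% of thinned cells, and in 35.1%, 36.5%, 46.4% and 45.9% of all cells.

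H2-Ab1, the I-A beta chain, ran in the other order over the suffixes, with 33.6 CPM (29.6 to 38.0) in suffix 1, 28.5 CPM (24.95 to 32.3) in suffix 2, 16.1 CPM (13.7 to 18.8) in suffix 3 and 22.2 CPM (19.2 to 25.6) in suffix 4. Its thinned detection was 5.68%, 5.28%, 3.29% and 2.81% of cells. Its partner H2-Aa, the I-A alpha chain, had 2.75, 1.68, 3.73 and 8.77 CPM, from 21, 14, 37 and 75 UMIs. H2-Eb1, the I-E beta chain, had 0.916, 0.600, 0.604 and 3.98 CPM. The suffix 4 values of both rested on 1 cell, without which H2-Aa was at 2.81 CPM and H2-Eb1 at 1.05 CPM in that suffix. In all, 844 H2-Ab1 UMIs and 147 H2-Aa UMIs were counted. H2-Aa lies at chr17:34282744-34287823 (minus strand) and H2-Eb1 at chr17:34305867-34316674 (plus strand) in GRCm38. Gm20513, an antisense gene that overlaps H2-Eb1, had no UMI.

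Cd74 was mostly found in suffixes 3 and 4. It had 1.05 CPM (0.452 to 2.06) in suffix 1, 0.720 CPM (0.264 to 1.57) in suffix 2, 29.2 CPM (25.9 to 32.8) in suffix 3 and 25.4 CPM (22.1 to 29.0) in suffix 4. Without the single cell with the most Cd74, the suffix 4 level was 11.2 CPM (9.10 to 13.7). Cd74 was detected in 0.262%, 0.0812%, 2.47% and 0.938% of thinned cells. Ciita was found as 2 UMIs in suffix 4 (0.234 CPM), and its 0 UMIs in suffixes 1, 2 and 3 allow up to 0.392, 0.360 and 0.302 CPM (3 counts). Ciita (chr16:10480059-10528418, plus strand, GRCm38) overlaps Dexi on the other strand, which had 9.37 to 11.2 CPM over the suffixes.

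**Figure D1:**
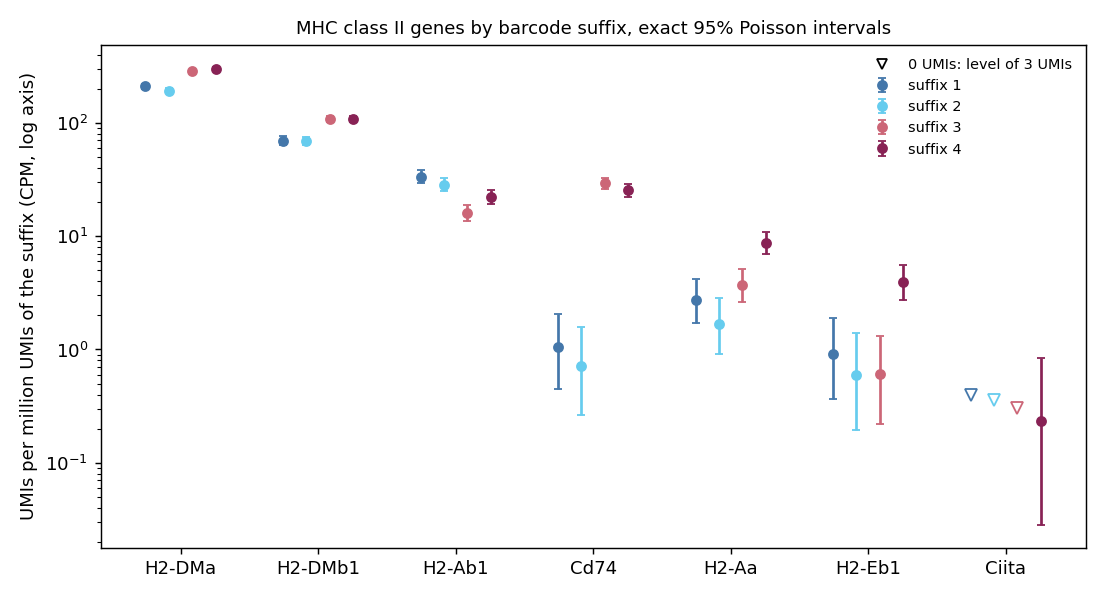
Level of each class II gene in each barcode suffix, as CPM on a log axis, with exact 95% Poisson intervals; open triangles mark the level of 3 UMIs where none was counted. H2-DMa lies between 193 and 296 CPM in every suffix, while Cd74 lies near 1 CPM in suffixes 1 and 2 and above 25 CPM in suffixes 3 and 4.

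The sum of the 7 genes was 319 CPM in suffix 1, 294 CPM in suffix 2, 442 CPM in suffix 3 and 465 CPM in suffix 4. Markers of cell types varied over the suffixes too. The 20 monocyte markers summed to 4056, 5254, 11137 and 12211 CPM in suffixes 1 to 4, and the 10 neutrophil markers to 859, 1469, 17020 and 11295 CPM. The 8 granulocyte precursor markers summed to 13721, 16590, 6649 and 7097 CPM. A change in the make-up of a suffix and a change of level within its cells cannot be told apart in these sums, and the part of either was not tested.

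To ask which cells carried the transcripts, cells were clustered with the class II genes left out of the variable genes, which gave 13 clusters. One, of 746 cells and with Lpl, Apoe, Ifitm3 and Lyz2 among its leading genes, was monocyte-like, as 18 of 20 monocyte markers were raised (at least 2-fold over the other cells and at 20 CPM or more). It held 4, 9, 405 and 328 cells of suffixes 1 to 4. One of 247 cells was neutrophil-like, 1 eosinophil-like and 2 granulocyte precursor-like. The eosinophil-like name rests on 3 of 7 markers, Prg2, Prg3 and Siglecf, as Epx, Ear1, Ear6 and Ccr3 had no UMI in any cell. That cluster also had 2 raised monocyte and 2 raised granulocyte precursor markers. The other clusters stay unnamed and are called by genes that lead them, such as Kctd14 and Gsn (530 cells, with 48, 59, 264 and 159 of suffixes 1 to 4) and Pld4 and Gpx3 (627 cells). The smallest cluster, of 36 cells from suffixes 3 and 4 only, had the interferon-induced genes Ifit3, Irf7, Rsad2 and Isg15 among its leading genes and is called interferon-led. It had 17 raised monocyte markers but none among its 10 leading genes, and the Kctd14 cluster had 4 raised monocyte, 4 stem and progenitor, 3 conventional dendritic, 3 plasmacytoid dendritic and 2 basophil and mast cell markers.

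H2-DMa was graded over the clusters. It reached 437 CPM (414 to 461) in monocyte-like cells, 436 CPM (409 to 464) in the Kctd14 cluster and 390 CPM (370 to 411) in the Pld4 cluster. The Kctd14 cluster overlapped both of the others in its interval, and the interferon-led cluster at 484 CPM (366 to 627) overlapped all 3. Clusters led by cell cycle genes lay between 143 and 245 CPM, the Cpa3 and Npy cluster at 214 CPM and eosinophil-like cells at 188 CPM, and the granulocyte precursor-like clusters at 185 and 90.0 CPM. Neutrophil-like cells were lowest, with 43.3 CPM (33.6 to 55.0). Monocyte-like over neutrophil-like cells, the ratio was 9.40 (6.89 to 13.2) in suffix 3 and 10.5 (6.95 to 16.7) in suffix 4. Suffixes 1 and 2 had too few cells of both kinds.

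H2-DMb1 had a flatter profile. It was at 151 CPM in monocyte-like, 129 CPM in Pld4, 112 CPM in Kctd14 and 64.0 CPM in neutrophil-like cells, and the monocyte-like over neutrophil-like ratio was 2.54 (1.88 to 3.48) in suffix 3 and 2.17 (1.54 to 3.15) in suffix 4. There were 3.91 H2-DMa UMIs per H2-DMb1 UMI in the Kctd14 cluster (3.39 to 4.51) and 2.90 in monocyte-like cells (2.61 to 3.23), but 0.677 in neutrophil-like cells (0.489 to 0.932). After thinning, H2-DMa was detected in 55.4% of monocyte-like and 8.20% of neutrophil-like cells, and H2-DMb1 in 27.1% and 9.43% of them.

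Neighbouring and related genes bear on these counts. The annotated H2-DMa gene (chr17:34119541-34139101, plus strand, GRCm38) overlaps the start of Brd2 on the other strand, and the sources used here do not say whether counting used strand. Brd2 had 65.6 CPM in monocyte-like and 43.3 CPM in neutrophil-like cells. H2-DMb1 (chr17:34153072-34160230, plus strand) has a close copy, H2-DMb2, at 5.76, 5.76, 18.6 and 15.4 CPM in suffixes 1 to 4 and at 32.8 CPM in monocyte-like against 7.11 CPM in neutrophil-like cells. Reads shared by such copies could have been assigned to either or dropped, so the split between them is uncertain.

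H2-Ab1 (chr17:34257689-34269419, plus strand) had another distribution. Its level was 40.9 CPM (32.6 to 50.7) in the cluster led by Cpa3 and Npy, 38.6 CPM in the smaller granulocyte precursor-like cluster, 33.1 CPM in one led by Rrm2 and Phgdh and 30.6 CPM in the Kctd14 cluster. These 4 overlapped in their intervals, and the interferon-led cluster had 38 UMIs, of which 37 were in 1 cell. These levels pool the suffixes, and the Cpa3 cluster had 261, 125, 13 and 5 cells of suffixes 1 to 4, so cluster and suffix are mixed. Among clusters of at least 30 cells, one led by Hist1h2ap and Ube2c was highest in suffix 1 (51.8 CPM). The smaller granulocyte precursor-like cluster was highest in suffix 2 (43.6 CPM), the Kctd14 cluster in suffix 3 (27.7 CPM) and the Rrm2 cluster in suffix 4 (37.4 CPM). Monocyte-like cells had 6.75 CPM (4.18 to 10.3), below the 14.9 CPM (9.42 to 22.3) of neutrophil-like cells, which are not known for class II. Within suffixes the monocyte-like over neutrophil-like ratio was 0.521 (0.214 to 1.27) in suffix 3 and 0.345 (0.126 to 0.916) in suffix 4. Thinned detection was 0.825% (0.303 to 1.79) in monocyte-like and 2.46% (0.908 to 5.28) in neutrophil-like cells, so it was not read as expression in monocyte-like cells. Median depths before thinning were 3962.5 and 6031 UMIs in monocyte-like and neutrophil-like cells.

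Cd74 was concentrated. The Kctd14 cluster held 346 of its 521 UMIs (66.4%), at 158 CPM (142 to 176), against 9.65 CPM (6.51 to 13.8) in monocyte-like cells. Within suffixes, that cluster had 31.2, 8.38, 242 and 113 CPM in suffixes 1 to 4. Its Cd74 level over that of monocyte-like cells was 24.5-fold (15.01 to 42.7) in suffix 3 and 11.6-fold (6.41 to 22.8) in suffix 4. These levels rest on few cells, as Cd74 was detected in 7.83% of the thinned cells of the Kctd14 cluster. There, 1 cell held 42 of the 76 Cd74 UMIs of suffix 4, and single cells held 50, 33, 28 and 25 of the 262 of suffix 3. The intervals do not cover such differences between cells. The interferon-led cluster had 130 Cd74 UMIs (1103 CPM), of which 121 were in 1 cell, and without that cell it had 78.4 CPM (35.8 to 149) from 9 UMIs in 2 cells. No Cd74 UMI was counted in the neutrophil-like cells, where 0 of 244 thinned cells had one.

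By cluster, H2-Aa was, like Cd74, higher in the Kctd14 cluster, at 21.5 CPM (15.8 to 28.6), than in monocyte-like cells, at 0.643 CPM. It had 0 UMIs in eosinophil-like and neutrophil-like cells. Of its 47 UMIs in the Kctd14 cluster, 31 were in suffix 3 and 15 in suffix 4. By cell the 2 genes mostly did not meet, as 9 of 62 cells with H2-Aa had Cd74, with 0 of 20 in suffix 1 and 0 of 14 in suffix 2. H2-Eb1 had 5.49 CPM (2.84 to 9.59) in the Kctd14 cluster and 0.643 CPM in monocyte-like cells. In the interferon-led cluster, all 51 H2-Aa UMIs and all 25 H2-Eb1 UMIs came from the same single cell. For H2-DMa that cluster was less dependent on it, with 401 CPM (293 to 534) when it was left out.

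**Figure D2:**
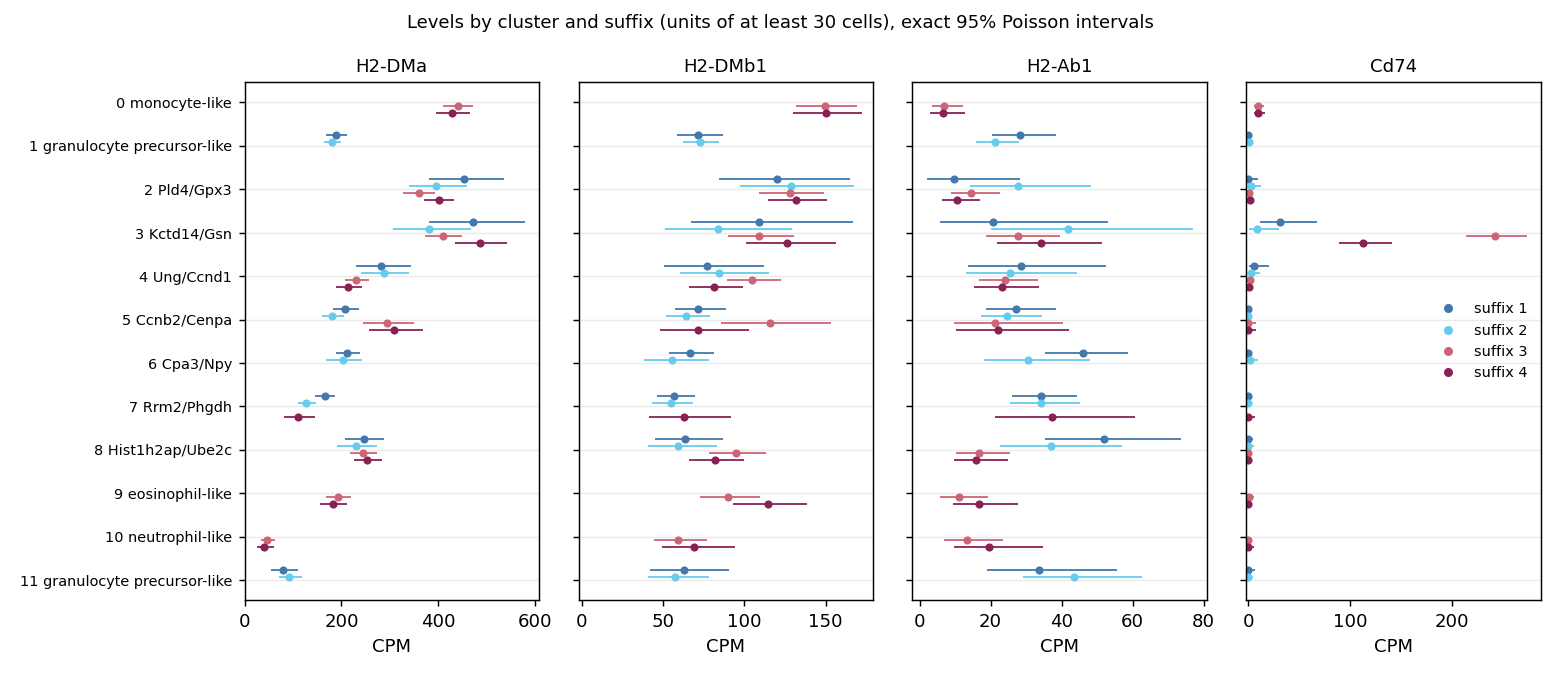
Levels of H2-DMa, H2-DMb1, H2-Ab1 and Cd74 in CPM by cluster (down the page) and suffix (colour), for units of at least 30 cells, with exact 95% Poisson intervals. H2-DMa is lowest in neutrophil-like cells in both suffixes shown, H2-Ab1 is lowest in monocyte-like cells of suffixes 3 and 4, and Cd74 stands apart in the cluster led by Kctd14 and Gsn.

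Monocyte-like cells carried 14.2% of all class II UMIs (13.6 to 14.8), and they were 13.7% of the cells. By suffix they carried 0.492%, 0.982%, 23.9% and 20.1% of the class II UMIs, and they were 0.341%, 0.719%, 24.9% and 23.3% of the cells. A share of cells does not account for depth, and monocyte-like cells were shallow, with a median of 3962.5 UMIs. Per UMI, their summed level was 609 and 595 CPM in suffixes 3 and 4, against 442 and 465 CPM over all cells of those suffixes. The share of class II UMIs depends on where the cluster is drawn, since at a coarser resolution (0.5 in place of 1) the monocyte-like class took 26.2% of the cells and 31.2% of the class II UMIs. Within single clusters the suffixes ran in different orders, in part within counting error. In the Pld4 cluster H2-DMa was at 454, 396, 359 and 401 CPM in suffixes 1 to 4, and in the Kctd14 cluster at 473, 381, 410 and 486 CPM. The interval of suffix 2 in the Pld4 cluster (339 to 459) held the values of every suffix. So did that of suffix 1 in the Kctd14 cluster (380 to 580). In 2 of the cell cycle clusters H2-DMa was at 282, 287, 231 and 214 CPM (led by Ung and Ccnd1) and at 208, 181, 294 and 309 CPM (led by Ccnb2 and Cenpa).

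Cd74 was found in 84 cells, 3, 6, 54 and 21 in suffixes 1 to 4. Of these, 48 were in the Kctd14 cluster, 19 were monocyte-like, 3 were in the interferon-led cluster and 14 were elsewhere. The number of Cd74 UMIs per cell was uneven, as 42 cells had 1, 21 had 2 to 4, and 21 had 5 or more and held 80.04% of all Cd74 UMIs. Cells with Cd74 were shallower, with a median of 3960 UMIs against 5832 in cells without it.

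The cell with the most class II transcripts belonged to suffix 4 and the interferon-led cluster. Of its 3050 UMIs, 252 were class II: 121 of Cd74, 51 of H2-Aa, 37 of H2-Ab1, 25 of H2-Eb1, 11 of H2-DMa, 6 of H2-DMb1 and 1 of Ciita. It also had UMIs of 17 of the 29 type I interferon genes listed and of 13 of the 20 monocyte genes. A second cell with all 7 genes, in the Kctd14 cluster of suffix 4, had 42 Cd74, 9 H2-Aa, 16 H2-Ab1, 6 H2-Eb1, 5 H2-DMa, 3 H2-DMb1 and 1 Ciita UMIs among 5621. Both Ciita UMIs of the table lay in these 2 cells.

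**Figure D3:**
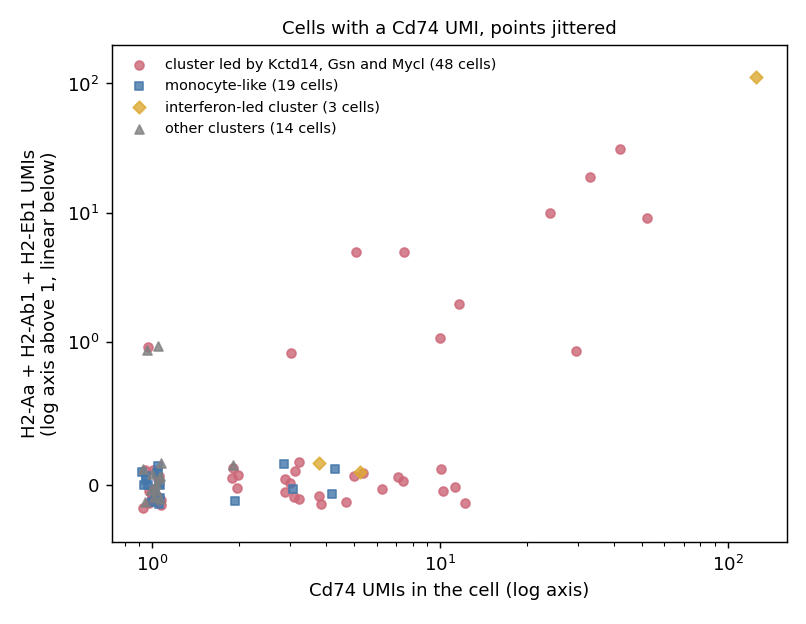
The 84 cells with a Cd74 UMI, by their Cd74 UMIs (log axis) and the sum of their H2-Aa, H2-Ab1 and H2-Eb1 UMIs (log above 1, linear below), coloured by cluster and jittered. Cells with many chain UMIs are those with many Cd74 UMIs, and most of the 42 cells with 1 Cd74 UMI have no chain UMI.

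Chain and invariant chain transcripts met in few cells. A UMI of H2-Aa, H2-Ab1 or H2-Eb1 was found in 7 of 15 cells of suffix 3 with 5 or more Cd74 UMIs (46.7%, 21.3 to 73.4), in 3 of 39 with 1 to 4 (7.69%, 1.62 to 20.9) and in 141 of 1571 with 0 (8.98%, 7.61 to 10.5). In suffix 4 it was found in 3 of 5 cells (60%, 14.7 to 94.7), 0 of 16 cells and 135 of 1385 cells (9.75%, 8.24 to 11.4). All 4 cells with H2-Aa, H2-Ab1 and H2-Eb1 together also had Cd74. H2-Aa was found in 11.1% and 14.3% of cells with Cd74 of suffixes 3 and 4, against 0.573% and 0.722% of cells without it, and the intervals did not overlap. H2-Ab1 was found in 14.8% (6.62 to 27.1) and 9.52% (1.17 to 30.4) of cells with Cd74, against 8.34% (7.02 to 9.82) and 8.88% (7.44 to 10.5), with intervals that overlapped. All shares in this paragraph are without thinning, and cells with Cd74 were shallower.

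Most chain transcripts were outside the cells with Cd74. Of 844 H2-Ab1 UMIs, 772 were in cells without a Cd74 UMI, and of all 1043 chain UMIs, 843 were. Among the 729 cells with a chain UMI and no Cd74, 635 had a single chain UMI and no cell had more than 4. Before thinning, H2-DMa was found in 83.3% (70.7 to 92.1) and 95.2% (76.2 to 99.9) of cells with Cd74 of suffixes 3 and 4, against 73.8% (71.6 to 76.0) and 73.6% (71.2 to 75.9) of cells without it. H2-DMb1 was found in 29.6% (17.98 to 43.6) and 28.6% (11.3 to 52.2), against 47.0% (44.5 to 49.5) and 46.2% (43.6 to 48.9). Cells with Cd74 of these suffixes were shallower, with medians of 3649 and 4053 UMIs against 5388 and 5380. These unthinned shares are therefore not matched for depth, and the part of depth in them was not tested.

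Cells with 3 or more of the genes were too rare to be compared. After thinning, 1, 5, 15 and 6 cells of suffixes 1 to 4 had UMIs of at least 3 of the 7 genes, and 15 of those 27 cells had H2-Ab1 with H2-DMa and H2-DMb1. Co-detection with other genes was therefore described in a pair of classes chosen after these counts were seen. The first is cells with a Cd74 UMI against cells without one, in suffixes 3 and 4, which had 54 and 21 such cells. The second is cells with at least 2 of the 7 genes after thinning (82, 71, 194 and 173 cells) against cells with none, and 398 of these 520 cells had H2-DMa with H2-DMb1. A gene counts as higher or lower where its CPM differed at least 1.5-fold the same way in every suffix compared, and list values are medians of log2 ratios of (CPM + 1). Over all 8236 genes with a mean of at least 5 CPM, 8.18% were higher and 11.7% lower in cells with Cd74, with a median of -0.13. In cells with 2 or more members 0.704% were higher and 0.425% lower, with a median of 0.03.

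The counts in cells with Cd74 depend on the scale and on few UMIs. With TMM factors (edgeR's scaling factors) in place of UMI totals, 411 genes were higher and 1312 lower, against 674 and 966 with totals, and the median of all genes was -0.35. A single UMI was worth 4.09 CPM in the cells with Cd74 of suffix 3 and 10.9 CPM in those of suffix 4, so low genes are imprecise.

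Monocyte genes were more abundant in cells with Cd74. Of 19 measured, 12 were higher and 0 lower, with a median of 0.87. Ifi30, a thiol reductase of antigen processing, was at 813 and 1062 CPM in cells with Cd74 of suffixes 3 and 4, against 193 and 211 CPM in cells without it. Ctss, the cathepsin that trims the invariant chain, was at 715 and 1051 CPM, against 279 and 278 CPM. Csf1r, the receptor for M-CSF, had 98.1 and 87.6 CPM, against 52.2 and 53.2 CPM. The genes of highest level went differently, since Ly6c2 was at 2272 and 1631 CPM against 2989 and 3110 CPM, and Lyz2, which encodes lysozyme, at 3858 and 11505 CPM against 4462 and 5223 CPM. With TMM factors 8 of the 19 were higher. Within the Kctd14 cluster of suffix 3 alone, where 1701 of all 8236 genes were higher and 2642 lower in cells with Cd74, 8 were higher and 2 lower.

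Single monocyte genes differed in detection at matched depth. Ifi30 was detected in 69.8% and 66.7% of cells with Cd74 in suffixes 3 and 4, against 28.0% and 30.9% of cells without it. Csf1r was detected in 26.4% and 28.6% of cells with Cd74, against 12.2% and 11.3%, and its intervals overlapped in suffix 4. Lyz2 was detected in 58.5% and 81.0% of cells with Cd74, against 75.2% and 75.8%, and Ly6c2 in 77.4% and 81.0%, against 92.2% and 94.5%. Fn1, which encodes fibronectin, was detected in 5.66% and 4.76%, against 5.96% and 5.201%. Irf8, a transcription factor of monocytes and dendritic cells, was detected in 54.7% and 71.4%, against 58.0% and 61.4%, within the counting intervals. Every thinned cell of suffixes 3 and 4, with or without Cd74, had a UMI of at least 1 monocyte gene. The median number of the 20 detected was 7 and 9 with Cd74, against 6 and 6 without.

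The members were also read from the side of the monocyte genes. Thinned cells with at least 5 of these genes numbered 295, 373, 1054 and 982 in suffixes 1 to 4. The monocyte-like cluster held only 4, 9, 405 and 328 cells, so most cells of this class lay outside it. In thinned cells with at least 5 monocyte genes H2-DMa was detected in 44.7%, 46.4%, 51.7% and 51.5% in suffixes 1 to 4, against 30.9%, 27.6%, 26.6% and 30.2% of the remaining cells, and the intervals did not overlap in any suffix. H2-DMb1 was detected in 15.3%, 16.4%, 23.7% and 23.1%, against 12.4%, 10.1%, 14.1% and 15.3%, with intervals that overlapped in suffix 1 alone. H2-Aa and H2-Eb1 were detected in at most 7 cells of either kind in any suffix. Cd74 was detected in 3.32% (2.32 to 4.59) against 0.760% (0.208 to 1.94) in suffix 3, and in 1.32% (0.707 to 2.25) against 0 of 404 cells in suffix 4. H2-Ab1 was detected in 4.41%, 5.63%, 2.85% and 2.24%, against 6.12%, 5.13%, 4.18% and 4.21%, with intervals that overlapped in every suffix.

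Type I interferon genes were also more abundant in cells with Cd74. Of 15 measured, 10 were higher and 0 lower, with a median of 1.29. Most of these genes are low, and of the 3 with a mean of at least 20 CPM 1 was higher, where 288 of all 4684 genes were higher and 434 lower. Ifi27l2a had 200 and 317 CPM in cells with Cd74 of suffixes 3 and 4, against 52.7 and 36.5 CPM in cells without it. Irf7, the transcription factor that amplifies interferon production, had 65.4 and 142 CPM, against 22.7 and 24.9 CPM. Isg15, a ubiquitin-like modifier, had 28.6 and 98.5 CPM, against 17.5 and 20.7 CPM, from 7 and 9 UMIs in cells with Cd74. Without the single cell described above 9 were higher. The count rested largely on the interferon-led cluster, without which 2 were higher and 1 lower, with a median of 0.39, and 662 of all 8236 genes were higher and 969 lower. Within the Kctd14 cluster of suffix 3 alone, 7 were higher and 2 lower, with a median of 0.51. There, 1701 of all 8236 genes were higher and 2642 lower, with a median of -0.10.

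Detection of single interferon genes was low in either class. After thinning, Irf7 was found in 17.0% (8.07 to 29.8) of cells with Cd74 and 4.45% (3.47 to 5.61) of cells without it in suffix 3, and in 9.52% (1.17 to 30.4) and 4.40% (3.37 to 5.62) in suffix 4. Of cells with at least 5 type I interferon genes, 5 of 38 had Cd74 in suffix 3 (13.2%, 4.41 to 28.1), against 34 of 1542 other cells (2.20%, 1.53 to 3.07). In suffix 4 it was 2 of 30 (6.67%, 0.818 to 22.1) against 11 of 1356 (0.811%, 0.406 to 1.45), where the intervals overlapped. Suffixes 1 and 2 had 4 and 10 such cells, none with Cd74.

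Genes induced by interferon gamma, the cytokine known to induce CIITA, had few calls. Of 17 measured, 0 were higher and 1, Gbp7, was lower, with a median of 0.19 that turned to -0.03 with TMM factors and to -0.03 without the interferon-led cluster. Gbp7, a guanylate-binding protein gene, had no UMI in cells with Cd74, against 5.26 and 7.92 CPM in cells without it. Psmb8, an immunoproteasome subunit, had 670 and 646 CPM in cells with Cd74, against 627 and 673 CPM.

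Other cell types that present antigen were looked for. Of 5 measured conventional dendritic cell genes 2 were higher in cells with Cd74, with a median of 0.60. These were Id2, a transcriptional repressor needed for such cells, at 560 and 898 CPM against 129 and 98.8 CPM, and Cst3, the cathepsin inhibitor cystatin C, at 2240 and 2824 CPM against 1102 and 1214 CPM. Cd209a, a lectin gene under the 5 CPM minimum, was detected in 18.9% and 14.3% of thinned cells with Cd74, against 1.90% and 1.47% without, and is named after its values were seen. The defining dendritic genes Zbtb46 and Xcr1 had no UMI in cells with Cd74, but they were at 0 and 0.029 CPM over all cells, so this could hardly have come out otherwise. Itgax and Clec9a had 2 and 1 UMIs in cells with Cd74 of suffix 3 and 0 in those of suffix 4. Of 4 plasmacytoid dendritic genes 2 (Runx2 and Irf7, which the type I interferon list also holds) were higher, with a median of 0.98, and the 9 genes of that list summed to 588 and 723 CPM, against 325 and 325 CPM.

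Most B cell and T cell genes were too low to compare. Pax5 and Ebf1 had no UMI in any cell and Cd79a was at 0.029 CPM over all cells. Cd79b, a subunit of the B cell receptor and the only B cell gene measured, had 77.6 and 87.6 CPM with Cd74, against 64.9 and 68.0 CPM, and all 7 T and NK cell genes were at 0 in cells with Cd74. Neutrophil genes ran the other way, with 7 of 8 lower and a median of -4.87, and their list summed to 658 and 285 CPM in cells with Cd74 against 17433 and 11414 CPM. Of 8 granulocyte precursor genes 6 were lower, with a median of -2.04. Of 7 macrophage genes 0 were higher and 1 lower, with a median of 0.37, and C1qa, C1qb and C1qc were at most at 0.116 CPM over all cells. Apoe, a lipid carrier of macrophages, had 119 and 1554 CPM in cells with Cd74 of suffixes 3 and 4, against 169 and 149 CPM, and Trem2, a lipid receptor of macrophages, had 0 and 65.7 CPM (0 and 6 UMIs), against 15.2 and 14.7 CPM. The macrophage list summed to 527 and 2168 CPM, against 547 and 533 CPM, so the suffixes differed. The part of these cell type differences in the other lists was not tested.

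**Figure D4:**
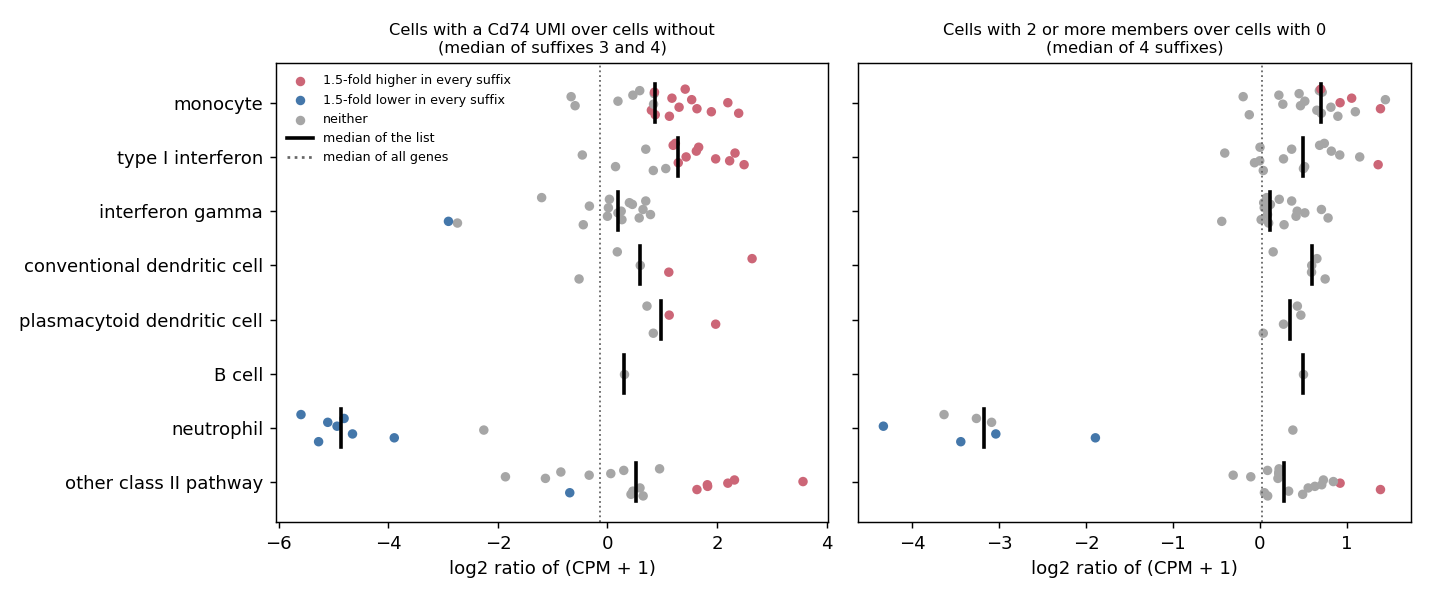
Log2 ratios of (CPM + 1) for the measured genes of each list, in cells with a Cd74 UMI over cells without (left) and in cells with 2 or more members over cells with none (right). Each point is a gene, bars are list medians and the dotted line is the median of all genes; 12 of 19 monocyte and 10 of 15 type I interferon genes are higher on the left, against 4 and 1 on the right, where a call needs 4 suffixes in place of 2.

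The other genes of the class II pathway, a list of 23 of which 18 were measured, had 6 higher and 1 lower in cells with Cd74, with a median of 0.53. Lgmn, an endosomal protease that cuts the invariant chain, was at 57.2 and 230 CPM in cells with Cd74 of suffixes 3 and 4, against 8.77 and 8.75 CPM. H2-Oa and H2-Ob, the chains of the H2-O protein that restrains H2-DM, were at 114 and 109 CPM and at 40.9 and 87.6 CPM, against 35.6 and 26.6 CPM and 17.3 and 15.1 CPM. March1, a ubiquitin ligase that removes class II from the surface, was at 69.5 and 98.5 CPM, against 16.7 and 14.9 CPM. Ctss and Ifi30, which the monocyte list also holds, complete the 6. Ctsd, an aspartic protease, was lower at 159 and 164 CPM, against 261 and 261 CPM. Within the Kctd14 cluster of suffix 3 alone, 5 pathway genes were higher and 7 lower, with a median of -0.09. Of all 8236 genes, 1701 were higher and 2642 lower there, with a median of -0.10, so the pathway genes ran near all genes.

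The factors of the promoter boxes shown for H2-Eb1 and H2-DMb1 were neither higher nor lower by the 1.5-fold rule. Rfx5, the DNA-binding subunit of RFX, had 0 and 1 UMI in cells with Cd74, against 5.78 and 4.73 CPM in cells without it. Rfxap and Rfxank, its partners, had 20.4 and 65.7 CPM and 12.3 and 10.9 CPM, against 15.3 and 22.5 CPM and 9.50 and 8.98 CPM. Nfya, Nfyb and Nfyc, the subunits of NF-Y, had 4, 7 and 7 UMIs in cells with Cd74 of suffix 3 and 0, 2 and 5 UMIs in those of suffix 4. The precision of such counts is low, and a difference was not detectable at this depth.

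In cells with 2 or more members, which mostly means H2-DMa with H2-DMb1, a call needs 1.5-fold in 4 suffixes and not 2, so its counts cannot be set against those in cells with Cd74. Of 19 monocyte genes 4 were higher (Ctss, Psap, Lgals3 and Ifi30) and 0 lower, with a median of 0.70 that was 0.34 without thinning, where 2 were higher. Lgals3, which encodes galectin-3, was at 206, 240, 853 and 813 CPM in cells with 2 or more members of suffixes 1 to 4, against 65.0, 115, 409 and 434 CPM in cells with none. Of 15 type I interferon genes 1 was higher, Ifi27l2a at 33.7, 42.3, 96.6 and 103 CPM against 11.0, 21.01, 41.7 and 19.3 CPM, with a median of 0.50. That median was 0.13 without thinning, where 0 were higher, 0.15 over all 29 genes and 0.26 without monocyte-like cells. Of 17 interferon gamma genes 0 were higher or lower, with a median of 0.12, and the single B cell gene was neither, with a ratio of 0.50. The 5 conventional and 4 plasmacytoid dendritic genes had no member higher or lower and medians of 0.60 and 0.35. Of the 18 pathway genes Ctss and Ifi30 were higher, with a median of 0.28, and of 8 neutrophil genes 4 were lower, with a median of -3.17.

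Genes that ran most like the sum of the 7 were sought over 35 units of cluster and suffix, which share libraries and depth, so the correlations are descriptions. Of 8240 genes, Clta (Pearson r of 0.950), Prcp (0.942), Cbfa2t3 (0.942), Tifa (0.936), Mndal (0.927), Cst3 (0.926), Abhd6 (0.924), Ptpro (0.918), Tgfb1 (0.911) and Atp13a2 (0.911) were closest. Clta encodes a clathrin light chain, Cbfa2t3 a transcriptional corepressor and Tgfb1 the cytokine TGF-beta 1. H2-DMa itself had 0.973, H2-DMb1 0.770 and Cd74 0.695, while H2-Ab1 had -0.237. These members are part of the sum, and 8578 of its 13250 UMIs were from H2-DMa, so its value was largely set in advance. Likeness to the sum is thus mostly likeness to H2-DMa. Clta, Prcp, Tifa, Mndal, Abhd6, Tgfb1 and Atp13a2 were also among the genes closest to H2-DMa alone, while Cbfa2t3, Cst3 and Ptpro were not.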

How the data were processed

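Single-cell RNA was measured in 4 samples of sorted leukaemia cells with the 10x Chromium 3' V2 kit, per the labels' protocols. The deposited table holds the authors' whole-number UMI counts per gene and barcode, with no normalization, per the file headers and values. The submitters' processing notes name Cell Ranger 1.3, Seurat 2.3.4 and mm10. The annotation used for counting is not stated there. Gene positions are from GENCODE M21 on GRCm38 and promoters from RefSeq on GRCm38.p6, which held windows for 4 of the 7 members.

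Barcodes under 500 UMIs (there were none) or above 10% mitochondrial UMIs were dropped. CPM are sums of UMIs over a suffix, cluster or class, with exact Poisson intervals. Shares have exact binomial and ratios exact conditional binomial intervals, all at 95%. For detection each cell was thinned to 2000 UMIs, and the 20 to 45 shallower cells of each suffix were left out. Clusters were made in scanpy 1.11.5 (Python 3.11.15) from 10000 UMIs per cell, 2000 variable genes without class II genes, 30 components, 15 neighbours and Leiden resolution 1. A cluster was named where at least 3 markers of a type were 2-fold up at 20 CPM and that type led by markers overall and among the 10 leading genes. Scrublet marked 27 cells (0.495%), which were not removed. Whether it found all doublets was not tested, so some may remain.

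Classes of cells were compared within each suffix as log2 of (CPM + 1) over (CPM + 1), with a minimum of 30 cells a side (20 for Cd74). There are no p-values, as cells of 1 sample do not replicate a condition. The log2 ratios and the 1.5-fold call were checked on simulated counts with Poisson noise only and set changes larger than 1.5-fold. Thinning, clustering, cluster names and intervals were not checked in this way. TMM factors came from edgeR 4.0.16 in R 4.3.3 and serve as an alternative only. All members are named, and of each list some of the 2 genes with the highest mean and the 2 others with the largest ratio, with every measured pathway gene allowed. Csf1r, Psap, Lgals3 and, in cells with Cd74, Isg15 and Irf7 as an interferon gene were named after their values were seen, as were genes that had no UMI. The members and lists were chosen with earlier results of these data known, and the classes of cells with Cd74 and with 2 or more members were set after the planned class of 3 or more members proved too small.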

Additional observations from a re-analysis of the deposited data

Results flagged for a closer look

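H2-Eb1 was at 3.98 CPM in suffix 4, far from the 0.600 to 0.916 CPM of the other 3 suffixes. The gap to the nearest of them was 0.907 of the whole range, above Dixon's 95% critical value for 4 samples. Of the 34 H2-Eb1 UMIs in suffix 4, 25 were in 1 cell of the interferon-led cluster, and without it the level was 1.05 CPM. Ciita was at 0.234 CPM in suffix 4 and at 0 in the others, which makes the gap the whole range, and it rests on 2 UMIs. Chance gives such a gap in about 1 in 20 groups of continuous values, and 8 levels were looked at. For Ciita that rate does not hold, since 2 UMIs in 1 suffix and 0 in the others make the gap the whole range. The 208 barcodes left out for mitochondrial UMIs carried class II transcripts at 758 CPM (676 to 847), from 311 UMIs in 148 barcodes. H2-DMa was at 524 CPM and H2-DMb1 at 212 CPM in them. They had no Cd74 UMI, which allows up to 7.31 CPM.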

How the results depend on the processing

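With the mean over cells in place of UMI sums, the summed level was 345, 320, 509 and 541 CPM in suffixes 1 to 4, and without the cell with the most chain UMIs 436 CPM in suffix 4. Cd74 was detected in 1.72% of cells of suffix 3 at 1000 UMIs and in 0.480% of those of suffix 2 without thinning. The share with 3 or more members was 6.39%, 5.04%, 5.29% and 4.48% without thinning, 0%, 0% and 0.431% in suffixes 1 to 3 at 1000 UMIs, 0.432% in suffix 3 with no filter on cells and 0.0812% in suffix 2 with another seed. With 2 or more members it was 7.16%, 5.77%, 12.3% and 12.5%. Monocyte-like cells held 11.97% of class II UMIs (18.5% and 18.6% in suffixes 3 and 4) with class II genes in the clustering. At Leiden resolution 0.5 they held 31.2% (6.35%, 6.01%, 51.0% and 40.2% by suffix).

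In cells with 2 or more members, the conventional dendritic median was 0.15 over all genes with a UMI, 0.26 without thinning and 0.13 with at least 3 members unthinned. The B cell value was 0, and 0.21 with at least 3 members unthinned and 0.22 with another seed. Without thinning the plasmacytoid median turned to -0.094 and the pathway median was 0.045. With at least 3 members unthinned these were -0.0052 and -0.043, and the monocyte median was 0.14. TMM factors turned the median of all genes to -0.053. In cells with Cd74, TMM factors gave -0.033 for interferon gamma, 0.38 and 0.76 for the conventional and plasmacytoid dendritic lists and 0.085 for B cells, and a minimum of 20 CPM gave 0.86 for the conventional dendritic list. Without monocyte-like cells the dendritic lists were at 0.87 and 1.25 and B cells at 0.44. Interferon gamma was -0.026 without the interferon-led cluster. Within the Kctd14 cluster of suffix 3 interferon gamma was -0.24, conventional dendritic 0.011, plasmacytoid 0.53, B cell -0.51 and pathway -0.090. The median of all genes was -0.10 there. The cause of these moves was not tested. Of 211 values under alternatives, 148 kept their direction and stayed within the counting interval or, for lists, the range of the median over suffixes, which is wide where suffixes differ, 54 moved beyond it and 9 changed sign.

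The planned lists in cells with 3 or more members could not be computed after thinning. No paired analysis was possible because each group has 1 sample and no suffix is tied to one. Depth limits Ciita, H2-Eb1 and H2-Aa, and every list gene under about 20 CPM in cells with Cd74.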

Other observations

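The 4 suffixes, which are samples with no assigned group, fell into a pair of sets for some members. H2-DMa had 211 and 193 CPM in suffixes 1 and 2 and 284 and 296 CPM in suffixes 3 and 4. H2-DMb1 had 69.7 and 69.5 CPM in suffixes 1 and 2 and 108 CPM in each of suffixes 3 and 4. Cd74 had 1.05 and 0.720 CPM in suffixes 1 and 2 and 29.2 and 25.4 CPM in suffixes 3 and 4, and 11.2 CPM in suffix 4 without the single cell with the most chain UMIs. H2-Ab1 was ordered the other way, with 33.6 and 28.5 CPM in suffixes 1 and 2 and 16.1 and 22.2 CPM in suffixes 3 and 4. Without the same cell, H2-Ab1 was at 17.9 CPM in suffix 4. H2-Aa and H2-Eb1 showed no such sets once the cell with the most chain UMIs was left out. H2-Aa was then at 2.75, 1.68, 3.73 and 2.81 CPM and H2-Eb1 at 0.916, 0.600, 0.604 and 1.05 CPM in suffixes 1 to 4.

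Among 8236 genes, those with the largest ratio in cells with Cd74 included Kctd14, at 200 and 285 CPM in cells with Cd74 of suffixes 3 and 4 against 39.4 and 42.8 CPM in cells without it. Ifi203 and Mndal, members of the interferon-inducible p200 family, had 233 and 405 CPM and 441 and 854 CPM, against 47.0 and 46.7 CPM and 113 and 104 CPM. Rnase6, a secreted ribonuclease, had 311 and 372 CPM, against 78.4 and 75.8 CPM. Lsp1, an actin-binding protein of leukocytes, had 1071 and 1248 CPM, against 364 and 324 CPM. These were named after their values were seen.

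Lists of other marrow cells differed in cells with Cd74, where 8.18% of all 8236 genes were higher and 11.7% lower. The stem and progenitor list had 3 of 7 lower and none higher (median -0.72), although its sum was 462 and 493 CPM in cells with Cd74 of suffixes 3 and 4, against 355 and 364 CPM. That sum includes Ly6a, which encodes the surface protein Sca-1 and lies under the minimum of 5 CPM, so it is not among the 7. Ly6a had 123 and 175 CPM in cells with Cd74, against 3.10 and 3.07 CPM, and is named after its values were seen. Its rise was larger than that of the sum in each suffix, so without Ly6a the sum was not higher. The basophil and mast cell list had 2 of 3 lower and none higher (median -2.83), and the eosinophil list 2 of 3 lower and none higher (median -2.96). In cells with 2 or more members, where 0.704% of all genes were higher and 0.425% lower, these 3 lists had no gene higher or lower. Their medians were 0.26, 0.37 and -1.12. Macrophage genes had 2 of 7 higher there, Trem2 and Lpl, with a median of 0.76, and granulocyte precursor genes had 1 of 8 lower, Nkg7, with a median of -0.72. No T and NK cell or erythroid gene reached 5 CPM.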
